A study of Mus musculus with 3 samples.

Results

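The Notch genes described here are 8 of the 32285 genes counted, chosen by symbol from their role in the pathway, and each symbol matched 1 row of the count matrices. They are the receptors Notch1, Notch2 and Notch3, the ligands Jag1 and Jag2, the target genes Hes1 and Hey1, and Lfng, a sugar transferase that modifies the receptors. The cells came from organoids, epithelial cultures grown in Matrigel, whose source was submandibular salivary glands of mice aged 8 to 12 weeks of the C57BL/6 strain. Organoids of 4 animals were used, and the cells are not tied to an animal. Their shared medium held EGF, FGF2, N2, insulin, dexamethasone, the ROCK inhibitor Y27632, and medium conditioned with R-spondin1 or with Wnt3a. The 3 groups were organoids that received 7 Gy on day 5 as protons (beam plateau), organoids that received 7 Gy on day 5 as photons, and non-irradiated control organoids. All were collected on day 11, dissociated, sorted for live cells that excluded propidium iodide, and profiled by 10x Genomics 3' single-cell sequencing. Each group was 1 library of pooled animals, so no difference between groups could be tested and no p-value is given.

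Notch signalling passes between touching cells. A Jagged or Delta ligand on one cell pulls on a receptor on its neighbour, proteases release the receptor's intracellular part, and that part joins the DNA-binding protein RBPJ in the nucleus and switches on HES and HEY genes, which encode transcriptional repressors. Fringe enzymes such as LFNG add sugars to the receptor and alter which ligands activate it. In ducts and other layered epithelia the pathway is known for setting basal against luminal fates, and in the developing salivary gland for duct and acinar differentiation. Transcript levels of receptors and ligands do not measure signalling itself.

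After filtering, 13956 proton, 15041 photon and 13219 control cells remained, with medians of 2223, 2808 and 2757 unique molecular identifiers (UMIs) per cell. The libraries shared 49 to 56 of their cell barcodes pairwise. Epithelial markers were abundant in each library, with Epcam at 686, 1422 and 1204 CPM in proton, photon and control cells, where CPM is a gene's UMIs scaled to the same total in every library. Mitochondrial genes took 1.80%, 2.23% and 3.29% of UMIs and ribosomal protein genes 19.1%, 17.5% and 15.6%. Markers of stroma were close to 0: the 6 fibroblast genes summed to 0.409 to 0.767 CPM, the 5 endothelial genes to 1.32 to 2.45 CPM and the 5 immune genes to 2.09 to 3.59 CPM. Of the 5 acinar markers, Amy1 stood at 33.7, 21.4 and 41.5 CPM in proton, photon and control cells, and Aqp5 at 12.0, 13.8 and 11.9 CPM. Bhlha15 and Smgc gave at most 7 UMIs in any library, and Bpifa2 was not detected in any library. Doublets were not removed. Intervals in parentheses are exact 95% counting intervals, which cover neither the spread between cultures nor between library preparations.

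Of the 8 genes, 5 were above a mean of 25 CPM, and their order of libraries differed. Hes1 stood highest in the photon library, Jag1 and the receptors Notch1 and Notch2 stood highest in the proton library, and Jag2 stood highest in the control library. Hey1 and Lfng gave at most 161 UMIs in any library. Whole-library levels cannot tell fewer cells of a type from less RNA per cell. On the CPM scale and averaged over the 3 libraries, the order of levels was Notch1, Jag1, Hes1, Notch2, Jag2, Notch3, Lfng and Hey1. Per kilobase of gene span the order was Hes1, Jag1, Jag2, Notch1, Hey1, Notch2, Notch3 and Lfng. Jag1 held rank 2 on both scales. The labels do not say whether reads inside introns were counted.

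**Figure D1:**
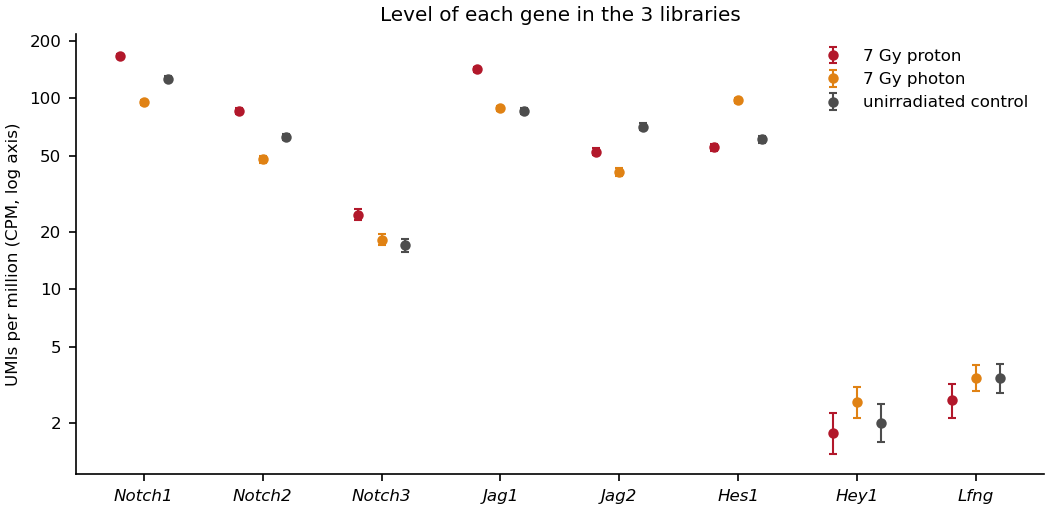
Level of each of the 8 genes in CPM (log axis) in the proton, photon and control libraries, 1 library per group; points are library values and bars are exact 95% Poisson intervals. Hes1 is highest in photon at 97.8 CPM, Jag1 highest in proton at 142 CPM and Jag2 highest in control at 71.1 CPM.

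Among the receptors, Notch1 (ENSMUSG00000026923, GRCm38 chromosome 2, 26457903 to 26516663, minus strand) stood at 167 CPM (163 to 171) in proton cells, 95.04 CPM (92.3 to 97.9) in photon cells and 127 CPM (123 to 130) in control cells. The 3 intervals did not overlap, and the order was proton, control, photon. Notch2 (ENSMUSG00000027878, chromosome 3, 98013527 to 98150361, plus strand) had the same order, at 85.6 CPM (82.6 to 88.6) in proton, 48.0 CPM (46.0 to 50.0) in photon and 62.6 CPM (60.2 to 65.1) in control cells. Notch3 (ENSMUSG00000038146, chromosome 17, 32120820 to 32166852, minus strand) stood lower, at 24.5 CPM (22.9 to 26.2) in proton, 18.2 CPM (17.0 to 19.4) in photon and 17.0 CPM (15.7 to 18.3) in control cells. For Notch3 the photon and control intervals overlapped and the proton interval lay above both. Notch3 is known as a receptor of pericytes and vascular smooth muscle. Of the pericyte list of 5 genes, 4 gave few UMIs, with Rgs5 at 18, 11 and 1 UMIs, Pdgfrb at 1, 5 and 0 UMIs, Des at 0, 0 and 1 UMIs and Cspg4 at 3, 13 and 33 UMIs in proton, photon and control cells. The whole list summed to 29.8, 16.9 and 8.38 CPM, of which Mcam made up 29.2, 16.3 and 7.49 CPM. Mcam had its highest level in proton cells, as Notch3 did, and its part in the Notch3 order was not tested. The remaining receptor Notch4, an endothelial gene, stood at 0.273, 0.256 and 0.380 CPM.

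The ligands parted. Jag1 (ENSMUSG00000027276, chromosome 2, 137081456 to 137116644, minus strand), the ligand mutated in human Alagille syndrome, stood at 142 CPM (138 to 146) in proton, 88.7 CPM (86.0 to 91.4) in photon and 86.0 CPM (83.1 to 88.9) in control cells. The photon and control values overlapped within counting error, and the proton value lay above both. Jag2 (ENSMUSG00000002799, chromosome 12, 112907819 to 112929776, minus strand), a ligand of stratified epithelia, stood at 52.6 CPM (50.3 to 55.0) in proton, 41.2 CPM (39.4 to 43.1) in photon and 71.1 CPM (68.5 to 73.8) in control cells. Here the control library was the highest and the photon library the lowest, with no overlap of the 3 intervals.

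Among the targets, Hes1 (ENSMUSG00000022528, chromosome 16, 30064384 to 30067796, plus strand), a repressor that is a direct target of the RBPJ complex, stood at 55.3 CPM (52.9 to 57.8) in proton, 97.8 CPM (94.98 to 101) in photon and 60.9 CPM (58.5 to 63.3) in control cells. The photon interval lay above the other two, and the proton interval lay just below that of control. Hey1 (ENSMUSG00000040289, chromosome 3, 8663359 to 8667256, minus strand), a related repressor, gave 65, 120 and 79 UMIs in proton, photon and control cells, or 1.77 CPM (1.37 to 2.26), 2.56 CPM (2.12 to 3.06) and 2.00 CPM (1.58 to 2.49). Lfng (ENSMUSG00000029570, chromosome 5, 140607320 to 140615545, plus strand) gave 96, 161 and 135 UMIs, or 2.62 CPM (2.12 to 3.195), 3.43 CPM (2.92 to 4.00) and 3.42 CPM (2.86 to 4.04). For both genes the level intervals of all 3 libraries overlapped. The proton over photon ratios were 0.693 (0.504 to 0.945) for Hey1 and 0.763 (0.586 to 0.988) for Lfng, with intervals below 1. Divided by the median ratio of genes of similar span, described below, they were 0.885 for Hey1 and 1.01 for Lfng.

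Shares of cells with a UMI gave the same orders once each cell was thinned to 2000 UMIs, which left 7939 proton, 10891 photon and 9620 control cells. Hes1 was detected in 9.71% (9.07 to 10.4) of proton, 16.2% (15.5 to 16.9) of photon and 10.1% (9.54 to 10.8) of control cells, and unthinned in 12.4%, 22.7% and 14.4%. Jag1 was detected in 21.4% (20.5 to 22.3), 14.0% (13.3 to 14.6) and 13.5% (12.8 to 14.1), and unthinned in 26.0%, 21.4% and 20.6%. Jag2 was detected in 9.35%, 7.72% and 12.6% of thinned cells. No cell type known to lack these genes was present to give a background share. The lowest share in any marker-gated group described below was 8.92%, 13.4% and 8.67% for Hes1 in proton, photon and control cells, and free RNA was not measured separately. At least 1 UMI of a receptor and of a ligand was found together in 12.0% (11.3 to 12.7) of proton, 5.14% (4.73 to 5.57) of photon and 7.53% (7.01 to 8.07) of control cells. For the 10 pairs among Notch1, Notch2, Jag1, Jag2 and Hes1, the number of cells with both was 0.866 to 1.22 times that given by the product of their shares, over the 30 pair and library values.

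The first comparison asked how proton-irradiated organoids differed from non-irradiated ones. Jag1 was the gene of the 8 that passed a fold of 1.5 with a mean of at least 25 CPM, at 1.65 times control (1.58 to 1.72). Of the 5 genes measured above that minimum 1 was higher and 0 lower, beside 10.8% of 5870 genes higher and 14.9% lower. Notch1 stood at 1.32 times control (1.27 to 1.37) and Notch2 at 1.37 times (1.30 to 1.44), Jag2 at 0.739 times (0.697 to 0.784) and Hes1 at 0.909 times (0.856 to 0.965). Below the minimum, Notch3 stood at 1.44 times control (1.30 to 1.59), and the intervals of Hey1 (0.628 to 1.25) and Lfng (0.583 to 1.00) held 1. The median log2 ratio of the 5 genes was 0.40, against 0.00033 for all genes tested.

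The second comparison asked the same of photons. Hes1 stood at 1.61 times control (1.53 to 1.69) and Jag2 at 0.579 times (0.546 to 0.614), and these 2 passed the fold, 1 in each direction, beside 5.75% of 5790 genes higher and 8.19% lower. Notch1 and Notch2 stood at 0.750 times (0.720 to 0.781) and 0.766 times control (0.723 to 0.812). Jag1 stood at 1.03 times (0.985 to 1.08), Notch3 at 1.07 times (0.964 to 1.18), Hey1 at 1.28 times (0.955 to 1.72) and Lfng at 1.00 times control (0.794 to 1.27), and each of these intervals held 1. The median log2 ratio of the 5 measured genes was -0.38, against -0.11 for all genes. Both comparisons use the same control library, so they are not independent.

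The third comparison set protons against photons. Notch2 stood at 1.78 times photon (1.69 to 1.88), Notch1 at 1.75 times (1.69 to 1.82) and Jag1 at 1.60 times (1.53 to 1.66), while Hes1 stood at 0.566 times (0.537 to 0.596). That made 3 of 5 higher and 1 lower, beside 22.7% of 5814 genes higher and 16.3% lower. Jag2 stood at 1.28 times photon (1.20 to 1.36) and Notch3 at 1.35 times (1.23 to 1.48). The median log2 ratio was 0.68, against 0.08 for all genes.

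Gene span moved with these ratios across all genes. Genes were put into 10 classes of equal size by span. In the shortest class, up to 4.84 kb, the median proton over photon ratio was 0.783, and in the longest, from 158 kb, it was 1.68. In that longest class 74.9% of genes were at least 1.5-fold higher in proton than in photon cells, and 4.30% in the shortest. The median photon over control ratio was 1.14 in the shortest class and 0.760 in the longest, and the proton over control ratio was 0.901 and 1.28. The Notch genes span 3.41 kb (Hes1) to 137 kb (Notch2), so each was set against genes of its own length.

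Ratios were then divided by the median of the gene's own span class. Notch2 stood at 1.20 times its class in proton over photon, at percentile 83.3 of the class, and at 0.969 times in photon over control, at percentile 40.4. Notch1 stood at 1.43 times its class in proton over photon, at percentile 90.4, and at 0.878 times in photon over control, at percentile 23.0. In proton over control Notch1 stood at 1.25 times its class, Notch2 at 1.16 times and Notch3, below the minimum of 25 CPM, at 1.51 times. Jag1 in proton over control stood at 1.72 times its class, at percentile 94.9. Jag2 in photon over control stood at 0.603 times its class, at percentile 2.07, but in proton over control at 0.875 times, at percentile 34.2. Hes1 in photon over control stood at 1.41 times its class, at percentile 91.0, which is under the fold of 1.5. Hes1 in proton over control stood at 1.01 times its class, at percentile 51.1, and in proton over photon at 0.722 times. Below the minimum, Hey1 stood at 0.984, 1.12 and 0.885 times its class in proton over control, photon over control and proton over photon. Lfng stood at 0.908, 0.898 and 1.01 times. In proton over photon these were percentiles 35.2 for Hey1 and 51.1 for Lfng. After this centring Jag2, at 1.54 times its class, was the 1 gene of the 5 past the fold in proton over photon.

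**Figure D2:**
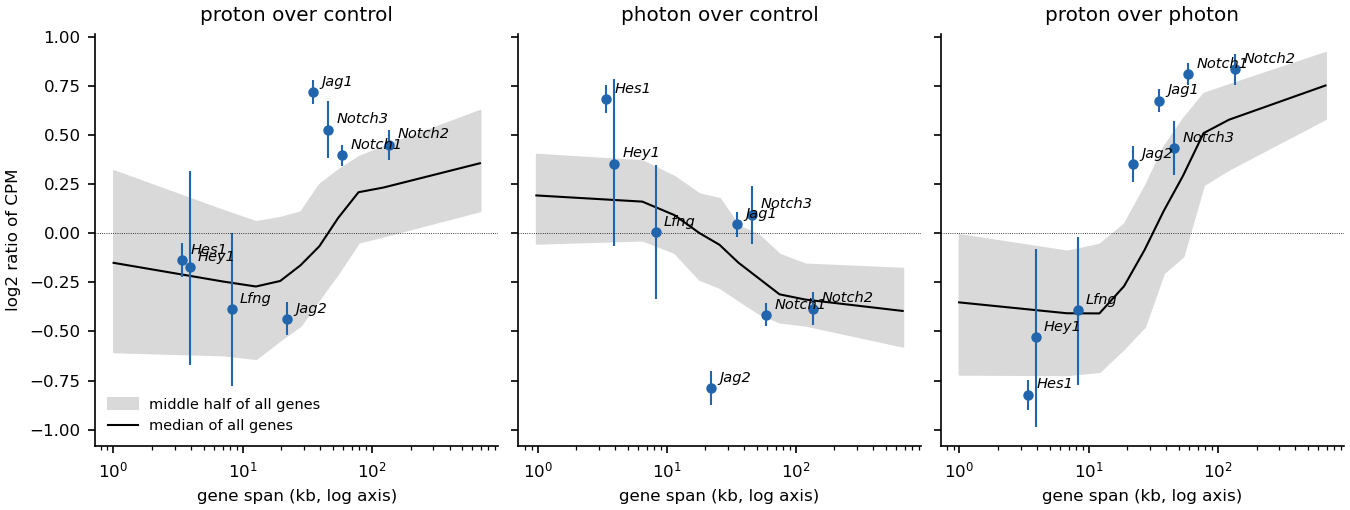
Log2 ratio of CPM against gene span (kb, log axis) for the 8 genes in 3 comparisons of 1 library each; bars are exact 95% counting intervals, the line is the median and the grey band the interquartile range of all genes with a mean of at least 25 CPM in 10 classes of gene span. Values outside the band include Jag1, Notch1 and Notch3 in proton over control and Jag2, Hes1 and Notch3 in photon over control. In proton over photon they include Notch1, Notch2, Jag1, Jag2 and Hes1.

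The pattern within the epithelium was read from 5 marker gates, set on the thinned counts. Krt14 marks basal cells, Cldn4 luminal cells, Krt13 squamous cells, Top2a dividing cells and Vim cells with the intermediate filament vimentin. Krt14-high cells had at least 5 Krt14 UMIs of 2000 and Krt14-low cells at most 1, and for the other markers the gate was at least 1 UMI against 0. The gates overlap, and their sizes differed between libraries: 8.89% of proton, 38.5% of photon and 26.9% of control cells were Krt14-high, and 7.37%, 7.07% and 1.42% were Top2a-positive. Vim-positive cells made up 5.95%, 8.02% and 1.31%. Each contrast below compares cells of the same library.

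Jag2 was higher in Krt14-high cells of each library. In Krt14-high against Krt14-low cells it stood at 61.5 against 40.8 CPM in proton, 43.9 against 29.9 CPM in photon and 76.7 against 52.4 CPM in control, ratios of 1.51 (1.26 to 1.79), 1.47 (1.29 to 1.67) and 1.46 (1.32 to 1.63). It was lower in Cldn4-positive than in Cldn4-negative cells, at 0.756, 0.672 and 0.821 times, with each interval below 1. In Krt13-positive cells it was lower still, at 28.6 against 49.2 CPM in proton, 26.2 against 40.1 CPM in photon and 31.8 against 67.7 CPM in control cells. Those ratios were 0.582 (0.430 to 0.772), 0.654 (0.518 to 0.816) and 0.469 (0.363 to 0.597), and Jag2 was the 1 gene of the 5 that passed 1.5-fold the same way in all 3 libraries at this gate. It did not pass when the cells with most UMIs or the Top2a-positive cells were left out, or when thinned counts were used. In dividing cells of the proton library Jag2 reached 76.5 CPM, against 45.2 CPM in Top2a-negative cells, a ratio of 1.69 (1.45 to 1.97). In photon and control cells that ratio was 1.20 (1.02 to 1.40) and 0.905 (0.650 to 1.23). Top2a-positive cells were deeper, with medians of 3838, 4518.5 and 4981 UMIs in proton, photon and control, against 3074, 3293 and 3199 in Top2a-negative cells.

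Notch2 was lower in Krt14-high than in Krt14-low cells of every library, at 0.758 times (0.643 to 0.888) in proton, 0.630 times (0.563 to 0.706) in photon and 0.732 times (0.650 to 0.822) in control cells. The median log2 ratio of all genes at this gate was also below 0, at -0.21, -0.17 and -0.076. Among all genes tested Notch2 lay at percentiles 35.0, 15.3 and 8.75. In Cldn4-positive cells it stood at 1.25 times (1.13 to 1.38) the Cldn4-negative level in proton, 1.19 times (1.07 to 1.33) in photon and 1.10 times (0.995 to 1.21) in control cells. The 238 genes at least 1.5-fold lower in Krt14-high cells of all 3 libraries had a median span of 66.0 kb, and all 5760 genes tested had 30.7 kb. Notch2 spans 137 kb but did not pass 1.5-fold in all 3 libraries, and the part of span in its ratios was not tested. Jag2 spans 21.96 kb.

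Notch1, Jag1 and Hes1 had no gate at which all 3 libraries passed 1.5-fold. Notch1 in Krt14-high over Krt14-low cells stood at 0.841, 0.837 and 1.06 times in proton, photon and control cells, and Jag1 at 0.855, 0.910 and 1.15 times. Among all genes tested at this gate, Notch1 lay at percentiles 47.3, 43.2 and 71.9, and Jag1 at 48.8, 52.6 and 84.8. Jag1 was lower in Top2a-positive cells, at 0.666 times (0.582 to 0.759) in proton and 0.741 times (0.647 to 0.845) in photon cells, and at 0.828 times (0.603 to 1.11) in control cells, where the interval held 1. Over the 5 gates and 3 libraries the Hes1 ratios lay between 0.741 and 1.35. Lfng, rare as it was, was higher in Krt14-high cells of each library, at 2.54 times (1.14 to 5.27) in proton, 1.82 times (1.18 to 2.86) in photon and 2.73 times (1.66 to 4.60) in control cells. Hey1 in Krt14-high over Krt14-low cells stood at 4.41 times (2.13 to 8.90) in proton, 1.71 times (1.06 to 2.82) in photon and 1.12 times (0.629 to 1.96) in control cells, on 15 to 60 UMIs in the Krt14-high cells. In thinned cells the proton difference was not seen, with a Hey1 UMI in 2 of 706 Krt14-high cells (0.283%) and 12 of 4743 Krt14-low cells (0.253%). Notch3 was higher in Krt13-positive than in Krt13-negative control cells, at 25.7 against 15.2 CPM (ratio 1.69, 1.26 to 2.24), and stood at 1.32 times (0.985 to 1.73) in proton and 1.29 times (1.00 to 1.65) in photon cells.

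**Figure D3:**
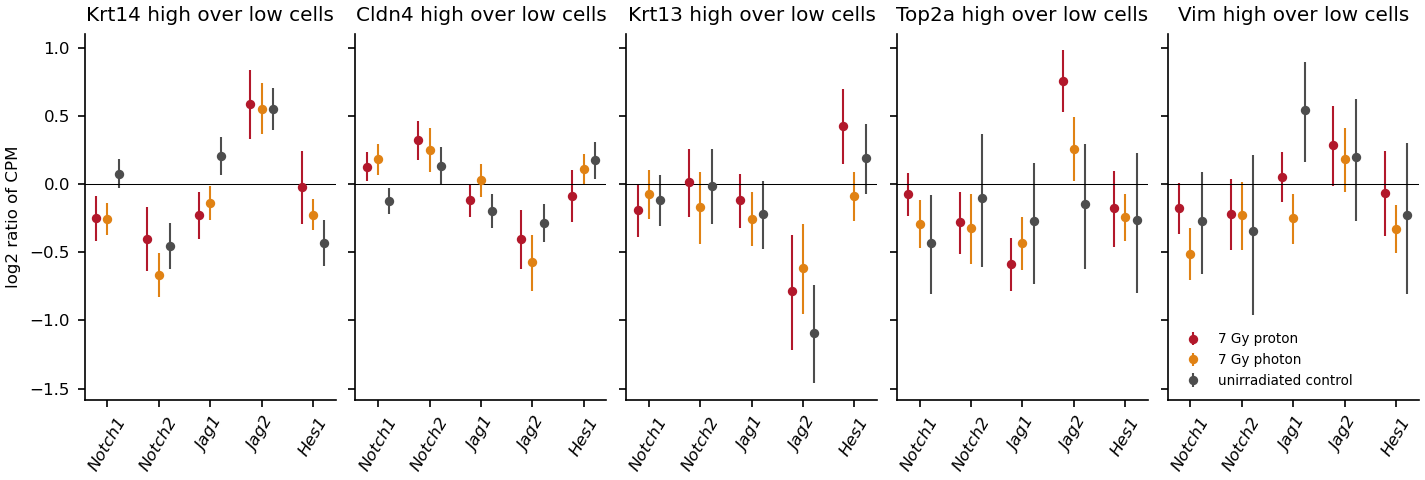
Log2 ratio of CPM in marker-high over marker-low cells of the same library for 5 genes and 5 gates, in the proton, photon and control libraries, 1 each; bars are exact 95% counting intervals. Jag2 lies above 0 at the Krt14 gate and below 0 at the Cldn4 and Krt13 gates in each library, while Notch2 lies below 0 at the Krt14 gate.

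Passing 1.5-fold the same way in all 3 libraries was rare. At the Krt14 gate 0 of the 5 genes passed in either direction, beside 1.49% of all genes higher and 4.13% lower. At the Cldn4 gate 0 passed, beside 0.582% higher and 0.531% lower. At the Krt13 gate 0 were higher and 1, Jag2, was lower, beside 1.13% and 0.836%. At the Top2a gate 0 passed, beside 4.67% and 4.24%, and at the Vim gate 0 passed, beside 1.33% and 2.19%.

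Differences between libraries were then read within each of the 10 gated groups. The groups share cells, and the Krt13-, Top2a- and Vim-negative groups each held 92.0% to 98.7% of a library's thinned cells. Their ratios therefore nearly repeat those of the whole library, and a count of groups is not a count of separate results. Hes1 in photon over control stood between 1.36 and 1.79 times in all 10 groups, with each interval above 1. The highest was in Krt14-high cells, at 85.8 CPM in photon against 48.1 CPM in control (ratio 1.79, 1.61 to 1.99), and the lowest in Krt13-positive cells. Hes1 in proton over control stood between 0.800 and 1.10 times. Jag1 in proton over control stood between 1.30 and 2.01 times in the 10 groups, with 9 intervals above 1, and was highest in Krt14-low cells, at 141 CPM against 70.0 CPM. In Vim-positive cells, where control held only 126 cells, its interval was 0.986 to 1.73. Jag2 in photon over control stood between 0.494 and 0.825 times, with 8 of 10 intervals below 1, and was lowest in Cldn4-positive cells, at 28.0 CPM in photon against 56.7 CPM in control. The Top2a-positive and Krt13-positive groups were the 2 whose intervals held 1. Jag2 in proton over control stood between 0.669 and 1.29 times, with 7 intervals below 1. Notch1 and Notch2 in proton over photon stood at 1.61 to 2.15 and 1.58 to 2.09 times, with all 10 intervals above 1 for each. Notch3 in proton over control stood at 1.19 to 1.82 times, with 7 intervals above 1.

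**Figure D4:**
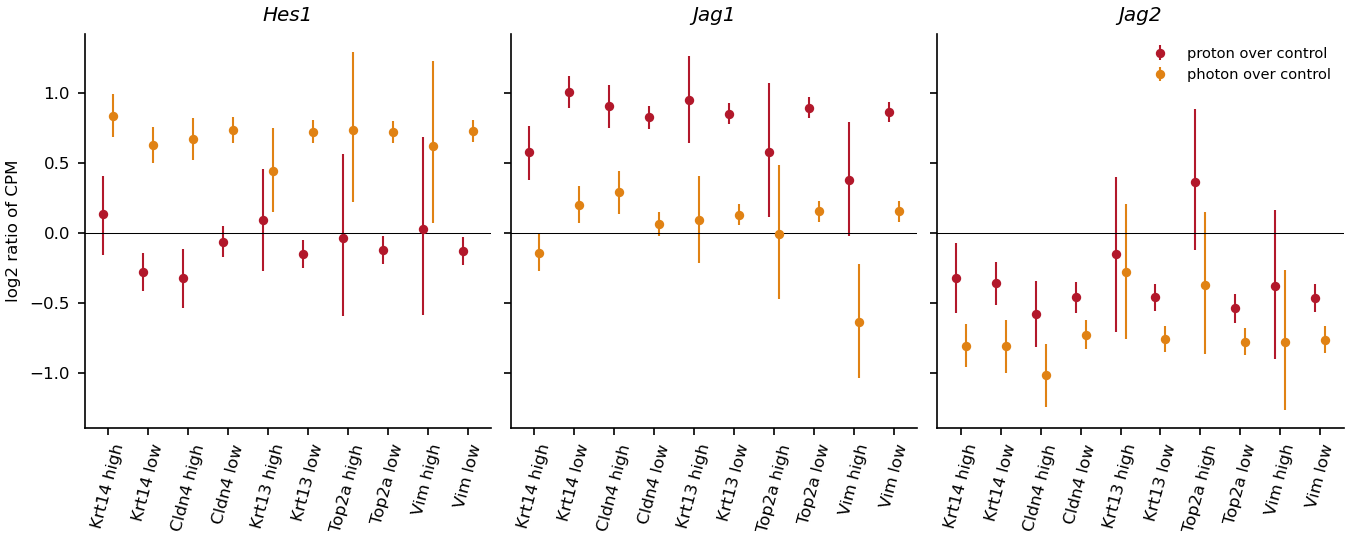
Log2 ratio of CPM in proton over control and in photon over control, within each of 10 marker-gated groups of cells, for Hes1, Jag1 and Jag2; bars are exact 95% counting intervals and each ratio compares 1 library with 1 library. Hes1 is above 0 in photon in all 10 groups, at 1.36 to 1.79 times control, and Jag1 is above 0 in proton in all 10, at 1.30 to 2.01 times.

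With the mixture of cells held equal over 5 of 9 strata of Top2a, Krt14, Cldn4 and Vim, the photon ratio of Hes1 was 1.71 and that of Jag2 was 0.574 times control. The proton ratio of Jag1 was 1.79 times control. The receptors in proton over photon stood at 1.63 (Notch1) and 1.72 times (Notch2). The other 4 strata held under 50 cells in at least 1 library and were not used.

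Over the 17 points of library and stratum with at least 100 cells, the genes with the most similar profile to Jag2 were the cadherin Cdh13 (r = 0.938), the basal transcription factor gene Trp63, which encodes p63 (r = 0.913), and the focal adhesion gene Tns3 (r = 0.861). Notch1 was most like Taf4b (r = 0.969), Med13l (r = 0.967) and Cbl (r = 0.967), and Notch2 most like Shroom2 (r = 0.970), Ireb2 (r = 0.970) and Qrich1 (r = 0.967). These 6 genes span 43.4 to 205 kb. Jag1 was most like Pid1 (r = 0.956), Cdc14b (r = 0.939) and Adgrg2 (r = 0.934). Hes1 was most like Ndufb6 (r = 0.931), a respiratory chain subunit gene, Serpinb6a (r = 0.916) and Gipc2 (r = 0.899). The genes named for Jag2 span 208 to 1041 kb, those for Jag1 86.0 to 328 kb and those for Hes1 8.83 to 84.9 kb. Among the 8, Notch1 and Notch2 were the most similar pair (r = 0.794) and Jag2 and Hes1 the least (r = -0.700). The points share 3 libraries and their gene span and depth effects, 5845 genes were compared for each, and the correlations describe these points only.

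The rest of the pathway was read from a list of 44 genes, of which 19 or 20 were measured above 25 CPM. In proton over control 4 of 20 were higher and 0 lower, beside 10.8% and 14.9% of all genes. In photon over control 0 of 19 were higher and 2 lower, beside 5.75% and 8.19%. In proton over photon 10 of 20 were higher and 0 lower, beside 22.7% and 16.3%. Their median log2 ratios were 0.30, -0.25 and 0.58, and 0.18, -0.07 and 0.20 once centred within classes of gene span. The measured genes were long, with a median span of 75.6 kb against 32.0 kb for all genes in proton over photon. After centring 4 of 20 were higher in proton over photon and 0 lower, beside 420 and 617 of 5814 genes. In proton over control 1 of 20 was then higher, beside 609 of 5870 genes. In photon over control 1 of 19 was lower, beside 209 of 5790 genes.

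By role, the Delta ligand gene Dll1 stood at 6.60 CPM in proton, 9.27 CPM in photon and 14.0 CPM in control cells, at 0.471 (0.404 to 0.549) and 0.662 times control (0.583 to 0.752). Dlk2, a non-canonical ligand, stood at 0.483 (0.400 to 0.582) and 0.671 times control (0.574 to 0.784) in proton and photon. Dlk1, its paralog, was named after its values were seen, and stood at 4.69, 7.69 and 2.58 CPM in proton, photon and control, 1.82 (1.41 to 2.34) and 2.98 times control (2.39 to 3.75). Mib1 and Fbxw7, ubiquitin ligase genes for ligand uptake and for turnover of the cleaved receptor, stood at 1.55 (1.49 to 1.61) and 1.61 times control (1.53 to 1.69) in proton cells. The coactivator genes Maml2 and Maml1 stood at 1.67 and 1.505 times control in proton cells. Centred on span, the log2 ratios were 0.42 for Mib1, 0.33 for Fbxw7 and 0.39 for Maml2, each under the fold, and 0.66 for Maml1, which was past it. In photon cells Furin, which encodes the protease that cuts receptor precursors, stood at 34.9 CPM against 65.6 CPM in control, 0.532 times (0.500 to 0.566), and Maml3 at 0.644 times, with a centred log2 ratio of -0.24 for Maml3, under the fold. Furin spans 16.9 kb, and its photon over control log2 ratio was -0.91 once centred on genes of that span.

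Among the genes of receptor cleavage, Adam10, which sheds the receptor's outer part, stood at 143, 101 and 118 CPM in proton, photon and control, and the gamma-secretase subunit gene Psenen at 114, 151 and 147 CPM. Maml2 (429, 215 and 256 CPM) and Maml3 (315, 157 and 244 CPM) span 411 and 419 kb. In proton over photon, Mib1 stood at 2.21, Maml1 at 2.21, Maml3 at 2.01, Maml2 at 1.99, Ep300 at 1.89, Fbxw7 at 1.87, Furin at 1.72, Itch at 1.54 and Kdm5a at 1.51 times photon. Centred on span, the log2 ratios of Mib1 (0.63), Maml1 (1.03) and Furin (1.06) were past the fold. That of the cleavage gene Ncstn, named after its values were seen, was also past it (0.82), from 1.46 times photon before centring. The centred log2 ratios of Maml3 (0.25), Maml2 (0.24), Ep300 (0.41), Fbxw7 (0.15), Itch (0.11) and Kdm5a (0.087) were under the fold. The sugar transferase genes Poglut1 and Pofut1 were detected in every library. Poglut1 stood at 29.95, 30.3 and 26.8 CPM in proton, photon and control, and Pofut1 at 15.4, 9.20 and 11.6 CPM, below the minimum of 25 CPM. The inhibitor genes Numb and Numbl had 79.3, 54.2 and 72.1 CPM (Numb) and 7.28, 5.77 and 6.17 CPM (Numbl).

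Among the other HES and HEY factors, Hes6 gave the most UMIs. It stood at 15.2, 22.4 and 16.9 CPM in proton, photon and control cells, 1.33 times control in photon (1.20 to 1.47) and 0.904 times in proton (0.806 to 1.01), the same order of libraries as Hes1 but below the minimum of 25 CPM. Hes7 stood at 0.354, 0.597 and 0.456 CPM. Nrarp, an inhibitor gene that Notch itself induces and which was named after its values were seen, stood at 3.65, 5.67 and 5.14 CPM, below the minimum. It stood at 1.10 times control in photon (0.916 to 1.33) and 0.711 times in proton (0.567 to 0.889). In proton over photon it stood at 0.644 times (0.520 to 0.796). Nrarp spans 2.58 kb and Hes6 2.56 kb. Centred on span, the proton over photon log2 ratio of Nrarp was -0.28, against -0.63 before centring. The photon over control log2 ratio of Hes6 was 0.22 once centred, against 0.41 before. Hes5 was not detected in any library, which allows up to 0.0818, 0.0639 and 0.0759 CPM, and Hey2 and Heyl gave 2 UMIs or fewer in each.

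Promoter sequences, 250 bases before to 50 after the start, were held for 6 of the 8 genes, and Hes1 and Hey1 were not among them. They are from RefSeq on GRCm38.p6. Jag1 and Jag2 are shown because their levels parted between libraries, and Lfng because its promoter alone of the 6 held the motifs searched. These were the core of the RBPJ site, TGGGAA, and the E-box bound by HES and HEY repressors, CACGTG, on both strands. The RBPJ core was in 25.6% of 32851 promoters of the same length and the E-box in 7.15%. Capitals mark the matches, of which Lfng held 2 and 1, with the second RBPJ core overlapping the E-box by its first bases, and Jag1 and Jag2 held none of these letters in this window. The GC content was 55.7% for Jag1 and 86% for Jag2, against a median of 52.7% over all promoters. The regions are chr2:137116471-137116770 on the minus strand for Jag1, chr12:112929446-112929745 on the minus strand for Jag2 and chr5:140607091-140607390 on the plus strand for Lfng.
Jag1: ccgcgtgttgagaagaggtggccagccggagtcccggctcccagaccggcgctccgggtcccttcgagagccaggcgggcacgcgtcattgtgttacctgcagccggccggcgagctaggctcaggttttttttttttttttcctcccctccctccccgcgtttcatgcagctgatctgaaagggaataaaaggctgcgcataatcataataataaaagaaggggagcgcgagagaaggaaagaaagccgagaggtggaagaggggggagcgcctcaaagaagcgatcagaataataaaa
Jag2: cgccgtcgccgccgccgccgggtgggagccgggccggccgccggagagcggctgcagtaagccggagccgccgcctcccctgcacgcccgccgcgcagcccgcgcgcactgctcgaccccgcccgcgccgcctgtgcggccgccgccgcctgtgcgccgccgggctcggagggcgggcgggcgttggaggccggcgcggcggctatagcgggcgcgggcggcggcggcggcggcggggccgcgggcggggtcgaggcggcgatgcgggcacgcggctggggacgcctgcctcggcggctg
Lfng: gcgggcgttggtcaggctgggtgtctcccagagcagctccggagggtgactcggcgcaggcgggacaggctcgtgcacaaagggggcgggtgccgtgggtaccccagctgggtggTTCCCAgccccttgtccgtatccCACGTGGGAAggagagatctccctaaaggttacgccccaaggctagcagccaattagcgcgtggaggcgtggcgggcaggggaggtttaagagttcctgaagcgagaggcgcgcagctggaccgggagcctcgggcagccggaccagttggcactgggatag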

How the data were processed

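The authors deposited, for each of the 3 libraries, raw UMI counts per gene and cell barcode. Per the submitters' processing notes these came from Cell Ranger 7.0.1 with mm10, while the file headers name 7.0.0. The labels do not say whether intronic reads were counted, and the deposited barcodes start at 500 UMIs. Cells with at least 500 genes and at most 20% mitochondrial UMIs were kept (36692939 proton, 46936995 photon and 39514768 control UMIs), and UMIs were summed per library and scaled to CPM. Ratios carry exact conditional binomial (Clopper-Pearson) intervals, levels exact Poisson intervals and shares exact binomial ones, at 95%. Genes were called higher or lower by size alone, at least 1.5-fold with a mean of at least 25 CPM over the libraries or cells compared. Gene spans came from GENCODE mouse release 21 (GRCm38), which matched 32235 of 32285 IDs, in 10 classes. Gates used cells thinned to 2000 UMIs without replacement, at the 75th and 25th percentile of the marker over all cells, and levels in gated cells used their full counts. Scripts ran in Python 3.11.15 with scipy 1.17.1 and were tested on simulated data. Named pathway genes are those past the fold and the 2 most abundant of each role. A gene that the rule names is not reported here. The genes and lists were chosen with earlier results of these data known. Alternatives in scaling, cell filter, depth, doublets, mixture, gene span, fold, minimum and gates were run.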

Additional observations from a re-analysis of the deposited data

Results flagged for a closer look

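Some ratios pointed in opposite directions in 2 libraries with both counting intervals clear of 1. None of these differences between libraries was tested, since each group is 1 library. Notch1 stood at 1.32 times control in proton and 0.750 times in photon cells, and Notch2 at 1.37 and 0.766 times. The median ratio of the span class of Notch1 was 1.06 in proton and 0.854 in photon over control, and that of Notch2 was 1.17 and 0.791. Hes1 stood at 0.909 times control in proton and 1.61 times in photon cells. The median ratio of its span class was 0.901 in proton and 1.14 in photon over control. Divided by those medians, Hes1 stood at 1.01 times in proton, at percentile 51.1, and at 1.41 times in photon, so the opposite directions did not remain. The proton and photon ratios share the control library.

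Within libraries, Jag1 in Krt14-high over Krt14-low cells stood at 0.855 times in proton, 0.910 times in photon and 1.15 times in control cells. Among all genes tested these were percentiles 48.8, 52.6 and 84.8, so the proton and photon values were near the median gene at this gate. Notch1 in Cldn4-positive over Cldn4-negative cells stood at 1.09 times in proton, 1.14 times in photon and 0.917 times in control cells, percentiles 57.0, 67.8 and 14.3. Jag1 in Vim-positive over Vim-negative cells stood at 0.840 times in photon and 1.46 times in control cells, where 126 cells were Vim-positive. Those were percentiles 28.3 and 93.3.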

How the results depend on the processing

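Directions of Hes1 and Jag2 in photon over control and of Jag1 in proton over control were the same under each alternative run. No gene called past the fold changed sign under any alternative. Among the counts and medians, 39 moved and 123 did not. With centring on gene span, the median log2 ratio of the 5 genes was 0.22 in proton over control, -0.046 in photon over control and 0.52 in proton over photon. The higher members were then 0 in photon over control and 1 in proton over photon, with 0 lower in proton over photon. All genes higher in photon over control were 364 against 333, and lower 209 against 474. In proton over photon 420 were higher and 617 lower, against 1318 and 948. With scaling by the median of gene ratios the medians were -0.27 in photon over control and 0.60 in proton over photon, and 246 genes were lower in photon over control. The share of higher genes among those called in photon over control was 41.3%, and 65.4% with that scaling or 63.5% with centring. In proton over photon it was 58.2%, and 47.9% or 40.5%. With the mixture held equal the medians were 0.31 in proton over control and -0.25 in photon over control, with 284 genes lower in photon. In thinned cells the photon over control median was -0.31. At a fold of 2, 0 members passed in any comparison. In proton over control 202 genes were then higher and 265 lower, in photon over control 132 and 49, and in proton over photon 181 and 226. With no minimum CPM these counts were 5647 and 5698, 3927 and 5797, and 6782 and 4767. With gates of at least 2 marker UMIs against 0, 1 member each was higher at the Krt14 gate (Jag2), lower at the Cldn4 gate (Jag2) and higher at the Krt13 gate (Notch3). The share of all genes passing at those gates is not given here, so these counts cannot be set against it. The lower count at the Krt13 gate was 0 with thinned counts, without the cells of most UMIs and without Top2a-positive cells. The cause of these shifts was not tested. No paired analysis was possible because each group is 1 library. Depth limits Hey1 and Lfng, with 65 to 161 UMIs a library.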
